A study of Mus musculus with 4 samples.

Results

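The genes described here encode axon guidance ligands and receptors of 4 systems: semaphorins with plexins and neuropilins, ephrins with Eph receptors, Slits with Robo receptors, and netrins with Unc5 receptors. They were picked out by a pattern in the array's gene names, which uses no measured values. Earlier results of these data were known when the choice was made. The choice took in 118 of 41174 probes and 63 of 27672 named genes: 20 semaphorins, 8 plexins, 2 neuropilins, 8 ephrins, 13 Eph receptors, 3 Slits, 3 Robo receptors, 2 netrins and 4 Unc5 receptors. Of the 63 genes, 56 were measured, meaning that the gene's brightest probe was well above background for the named stage on at least 1 array or for E14 on at least 2.

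Whole germs of the first lower molar were taken from C57BL/6 mouse embryos at embryonic day (E) 11, 12, 14, 16 and 18, pooled by stage, and profiled on two-colour oligonucleotide arrays. All embryos were of this strain, and the labels name no mutant allele and no treatment. Pooled E14 RNA, labelled with Cy3, was hybridised against pooled E11, E12, E16 or E18 RNA, labelled with Cy5, on 1 array for each stage, so that E14 was measured 4 times and every other stage 1 time. The labels do not say how many germs went into a pool. Values below are log2 ratios of the named stage over E14, so that 1 is 2-fold higher and -1 is 2-fold lower than at E14.

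Guidance ligands steer growing axons by attraction or repulsion, and the same ligands set tissue boundaries, guide vessels and move mesenchymal and epithelial cells. Semaphorins bind plexins, with neuropilins as co-receptors of the secreted class, and ephrins and Eph receptors signal between touching cells in both directions. Slits bind Robo receptors, and secreted netrins repel through Unc5 receptors. In the tooth, Sema3a from the mesenchyme is known to hold sensory axons off the germ until late in development.

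With 1 pool per stage no biological replicate exists, so stages are set against E14 without a p-value. The error printed beside a gene is the SD of its E14 log2 signal over the 4 hybridisations, which is technical. Its median was 0.05 over the 56 measured genes and its highest value 0.13 (Plxna3). Of the 56 genes, 54 were well above background for both dyes on all 4 arrays (96.4%, against 78.4% of all 17399 measured genes). No spot was saturated. The number of arrays limits the precision. The dyes were not swapped, so a dye bias of a probe and a difference of E14 from all other stages cannot be told apart. The early pair of stages (E11, E12) was on 1 slide and the late pair (E16, E18) on another, so slide and early against late cannot be told apart either. Median centring of each array, in place of the intensity-dependent loess used here, put the median of all genes at 0.40 (E11), 0.64 (E12), 0.57 (E16) and 0.17 (E18). Of 30 values of guidance genes at least 2-fold from E14, 14 stayed so under median centring and 1 turned (Nrp2 at E12). Of the 194 smaller values 81 turned, so the sign of a ratio under 2-fold can depend on the scaling.

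Markers of the tissue were present. All 10 dental and oral epithelium genes of a marker list were measured, among them Cdh1 and Epcam, and their median log2 ratios, in stage order, were -2.09, -0.93, 1.33 and 1.26. All 10 dental and jaw mesenchyme genes were measured too, with medians of 0.25, 0.18, -0.67 and -2.07. Of 12 neuron genes 9 were measured, while the axonal filament gene Prph and the neuron genes Stmn3 and Elavl3 were not well above background on enough arrays. All 9 endothelial genes were measured, with medians of -0.25, -0.32, -0.55 and -0.43. In these whole germs, fewer cells of a type and less RNA per cell cannot be told apart.

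Guidance genes stood below E14 more often than above it. Their median log2 ratio, in stage order, was -0.40, -0.17, -0.16 and -0.25, against -0.02, -0.0036, 0.0049 and -0.01 for all measured genes. With median centring the signs turned, to 0.095, 0.50, 0.48 and 0.03, values that still lay under those of all genes given above. At E11, 8 of 56 guidance genes were at least 2-fold lower than E14 and 0 at least 2-fold higher, 14.3% in all against 6.47% of all measured genes (4.87% lower and 1.6% higher). At E12 the counts were 6 lower and 0 higher (10.7% against 2.95%, of which 2.63% lower and 0.316% higher). At E16 there were 5 lower and 1 higher (10.7% against 3.71%, of which 1.7% lower and 2.01% higher), and at E18 6 lower and 4 higher (17.9% against 7.67%, of which 3.86% lower and 3.81% higher). With median centring the splits were 2 lower and 5 higher at E11, 2 and 13 at E12, 0 and 8 at E16, and 5 and 4 at E18. The shares of guidance genes were then 12.5%, 26.8%, 14.3% and 16.1% in stage order against 26.2%, 33.3%, 24.7% and 13.3% of all genes, so that at E11, E12 and E16 the guidance genes lay below the background in place of above it. With the scanner's own log ratios they were 15 lower and 2 higher, 8 and 2, 10 and 2, and 14 and 6, or 30.4%, 17.9%, 21.4% and 35.7% against 22.1%, 12.9%, 16.5% and 25.9% of all genes. Among genes well above background for both dyes on all arrays, the same counts came from 54 guidance genes, and the shares of all such genes were 7.67%, 3.35%, 4.06% and 8.84% in stage order. Lower than E14 on all 4 arrays were 23 of the 56 guidance genes (41.1%, against 21.9% of all measured genes), or 6 with median centring (against 5.89%). Within 2-fold of E14 on all 4 arrays were 40 of the 56 (71.4%, against 87.3% of all measured genes).

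**Figure D1:**
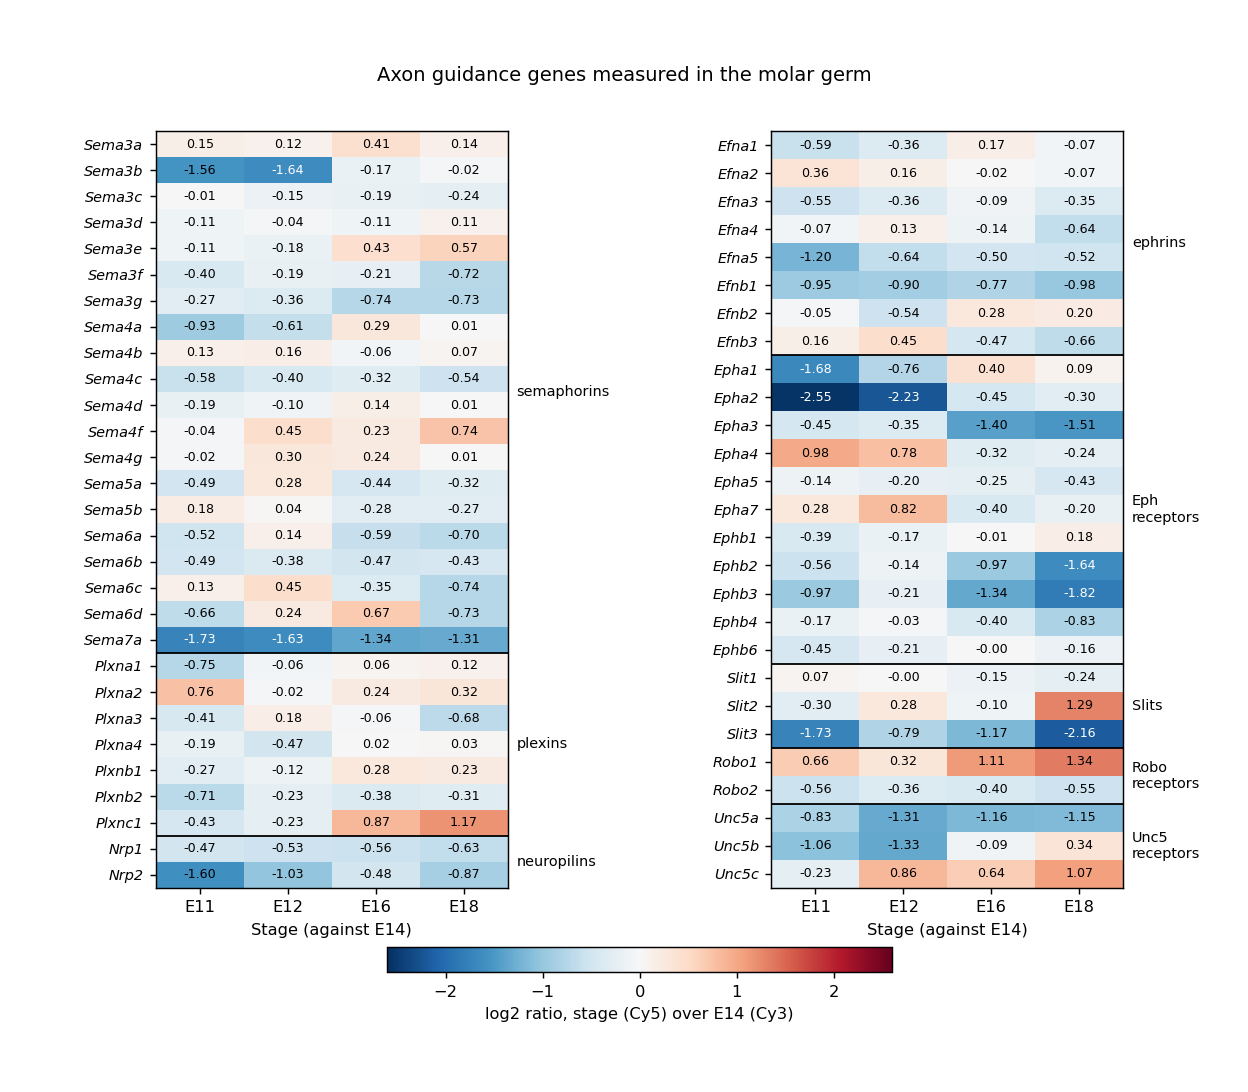
Log2 ratios of the 56 measured axon guidance genes (rows, by family) at E11, E12, E16 and E18 (columns) over E14, with each value printed in its cell. Blue is lower and red higher than E14; Sema7a is blue in all 4 columns, Epha2 is deepest at E11 (-2.55), and Slit2 (1.29) and Slit3 (-2.16) differ most at E18.

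**Figure D2:**
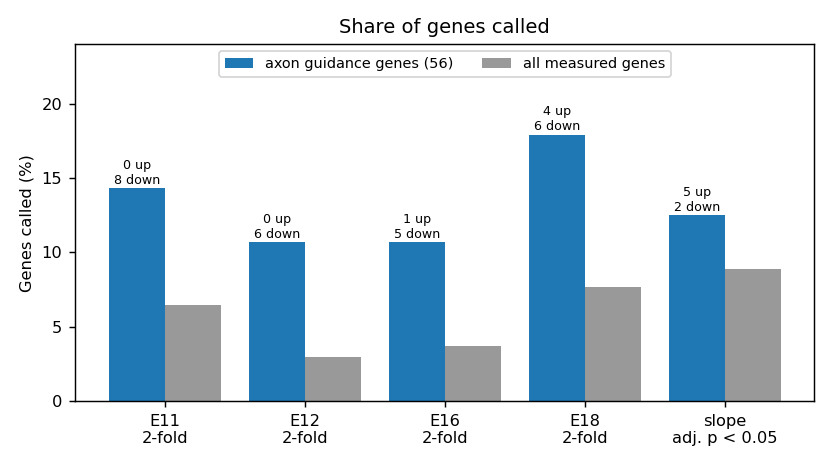
Share of the 56 axon guidance genes (blue) and of all measured genes (grey) that were at least 2-fold from E14 at each stage, and that had a slope in embryonic day at an adjusted p under 0.05 (vertical axis in percent, from 0). Numbers above the bars count the guidance genes higher (up) and lower (down).

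Values of a gene are given in stage order (E11, E12, E16, E18). Among the semaphorin ligands, all 20 genes were measured. Sema3b, a secreted semaphorin, was at -1.56 and -1.64 at the early stages E11 and E12 and at -0.17 and -0.02 at the late stages E16 and E18 (SD of E14 0.07, n = 4). It was 2.95-fold and 3.11-fold below E14 at the early stages and close to E14 at the late ones. Its probe was dim at the early stages, where it gave -2.63 and -2.55 with no offset in the background correction. Sema3e, a secreted ligand that acts on vessels through plexin D1, was at -0.11, -0.18, 0.43 and 0.57 (SD of E14 0.06, n = 4). Sema6d, a transmembrane semaphorin, was at -0.66, 0.24, 0.67 and -0.73 (SD of E14 0.04, n = 4). Its E16 value was the highest and its E18 value the lowest, a step of -1.41 within 1 slide. A dimmer Sema6d probe, at another place in the gene, gave -1.46, -0.92, -0.88 and -1.21, below E14 on all 4 arrays, so these probes disagree at E12 and E16. Sema7a, the GPI-anchored semaphorin that promotes axon growth, was at -1.73, -1.63, -1.34 and -1.31 (SD of E14 0.07, n = 4). It was the one guidance gene at least 2-fold below E14 on every array, a pattern seen in 0.351% of all measured genes, though with median centring its ratios were -0.93, -0.58, -0.47 and -0.87. With scanner log ratios Unc5a was so too, at -1.43, -2.48, -2.30 and -2.85, as it was without background correction and with no offset in it.

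The other 16 semaphorins lay between -0.93 and 0.74 over the 4 arrays. Sema3a, the secreted repellent of sensory axons, was at 0.15, 0.12, 0.41 and 0.14 (SD of E14 0.04, n = 4). By this probe it stood above E14 at each stage, by 1.33-fold at the most. Another Sema3a probe of similar brightness gave -0.13, 0.05, 0.28 and -0.16, below E14 at E11 and E18. Sema4a held the lowest value of these 16, at E11, and was at -0.61, 0.29 and 0.0072 at the later stages. Sema4f held the highest, at E18. The Sema4b probe was not well above background for E14 on any array, so no fold is given for it.

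Of the semaphorin receptors, Plxnc1, the plexin that binds Sema7a, was at -0.43, -0.23, 0.87 and 1.17 (SD of E14 0.03, n = 4). Both late stages lay above both early ones. A dim Plxnc1 probe, not well above background for E14 on any array, lay between -0.12 and 0.16. Plxna1, a receptor of the secreted and class 6 semaphorins, was at -0.75, -0.06, 0.06 and 0.12 (SD of E14 0.04, n = 4). A dimmer Plxna1 probe gave -0.18, -0.07, -0.36 and -0.26, below E14 on all 4 arrays and lowest at E16. The other 5 measured plexins lay between -0.71 and 0.76, the highest value being that of Plxna2 at E11. Plexin medians were -0.41, -0.12, 0.06 and 0.12, all above 0 with median centring (0.26, 0.81, 0.90 and 0.51). Nrp2, the co-receptor for Sema3f and for VEGF-C, was at -1.60, -1.03, -0.48 and -0.87 (SD of E14 0.03, n = 4). It was lowest at E11, 3.03-fold below E14. With median centring the 4 values were -0.46, 0.28, 0.57 and -0.21. Nrp1, the co-receptor for Sema3a and VEGF-A, was at -0.47, -0.53, -0.56 and -0.63 (SD of E14 0.04, n = 4), a range of 0.16 over the 4 stages. This probe is dim, and with no offset in the background correction it gave -0.88, -0.94, -1.04 and -1.35. A dimmer Nrp1 probe lay between -0.30 and -0.23. Another, with E14 not well above background on any array, lay between -0.12 and 0.10.

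Eph receptors divided by member. Epha2, an epithelial receptor of the ephrin-A ligands, was at -2.55, -2.23, -0.45 and -0.30 (SD of E14 0.02, n = 4). At E11 it was 5.86-fold below E14, the lowest ratio of any guidance gene on any array. With scanner log ratios Epha2 at E11 was at -2.75. Sema3b at E11 (-2.96) and E12 (-2.87), Unc5a at E18 (-2.85) and Epha5 at E18 (-3.12, not well above background there) then lay lower. Epha1, also a receptor of epithelia, was at -1.68, -0.76, 0.40 and 0.09 (SD of E14 0.05, n = 4). Epha4, which binds ephrins of both classes, ran the other way, at 0.98, 0.78, -0.32 and -0.24 (SD of E14 0.04, n = 4). Its dimmer probe ran from 1.23 at E11 down to 0.04 at E18. Epha3, a receptor of mesenchyme and neural tissue, was at -0.45, -0.35, -1.40 and -1.51 (SD of E14 0.08, n = 4). It was 2.64-fold and 2.86-fold below E14 at the late stages, while its dimmer probes reached -0.78 and -0.24 at the lowest.

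The B-class receptors Ephb2 and Ephb3 were lowest at E18. Ephb2 was at -0.56, -0.14, -0.97 and -1.64 (SD of E14 0.04, n = 4), and Ephb3 at -0.97, -0.21, -1.34 and -1.82 (SD of E14 0.05, n = 4). In both, E12 lay nearest to E14. A dimmer Ephb2 probe gave -0.32, -0.14, -0.33 and -0.52, the last with E18 not well above background. The other 5 measured Eph receptors lay between -0.83 (Ephb4 at E18) and 0.82 (Epha7 at E12). Epha5 was well above background at E11 and E12 but not at E16 or E18. Eph receptor medians were -0.45, -0.20, -0.40 and -0.30, or 0.11, 0.49, 0.40 and -0.03 with median centring.

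Among the ligands of the Eph receptors, Efna5 was at -1.20, -0.64, -0.50 and -0.52 (SD of E14 0.03, n = 4). A probe for a different transcript record of Efna5, much dimmer, stayed between -0.11 and -0.0002. Efnb1, the ephrin gene mutated in craniofrontonasal syndrome, was at -0.95, -0.90, -0.77 and -0.98 (SD of E14 0.03, n = 4), close to 2-fold below E14 at each stage, but at 0.30, 0.45, 0.30 and -0.29 with median centring. Efnb2, the ligand of Ephb4 on arterial vessels, was at -0.05, -0.54, 0.28 and 0.20 (SD of E14 0.07, n = 4). A dimmer Efnb2 probe gave 0.255, -0.05, 0.04 and -0.065, highest at E11. Efnb3 was at 0.16, 0.45, -0.47 and -0.66 (SD of E14 0.06, n = 4), with both early values above both late ones. The remaining ephrins, apart from Efnb1, are Efna1, Efna2, Efna3 and Efna4, and none of them was 2-fold from E14 on any array.

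Of the Slit ligands, Slit2 and Slit3 parted at E18. Slit2 was at -0.30, 0.28, -0.10 and 1.29 (SD of E14 0.02, n = 4). Only the E18 value was 2-fold from E14, and from E16 to E18, within 1 slide, Slit2 stood 2.62-fold higher. A neighbouring Slit2 probe gave -0.0001, 0.45, 0.38 and 1.52, while a dim probe for another transcript record stayed between -0.10 and 0.03. Slit3 was at -1.73, -0.79, -1.17 and -2.16 (SD of E14 0.03, n = 4), and its dimmer probe at -0.97, -0.57, -1.13 and -1.71. Both probes were lowest at E18 and nearest to E14 at E12, where the Slit3 value turned to 0.42 with median centring. Slit1 lay between -0.24 and 0.07.

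Robo1, a Slit receptor, was at 0.66, 0.32, 1.11 and 1.34 (SD of E14 0.03, n = 4). Robo1 and Sema3a were the 2 guidance genes above E14 on all 4 arrays (3.57%, against 21.4% of all measured genes). With median centring 15 were (against 49.5% of all genes), with scanner log ratios 6 (against 22%) and without background correction 4 (against 21.4%). Robo2 was at -0.56, -0.36, -0.40 and -0.55 (SD of E14 0.01, n = 4). This probe is dim, and with no offset in the background correction it gave -1.19, -0.69, -0.75 and -1.23. The dimmer measured Robo2 probes lay between -0.37 and -0.04.

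**Figure D3:**
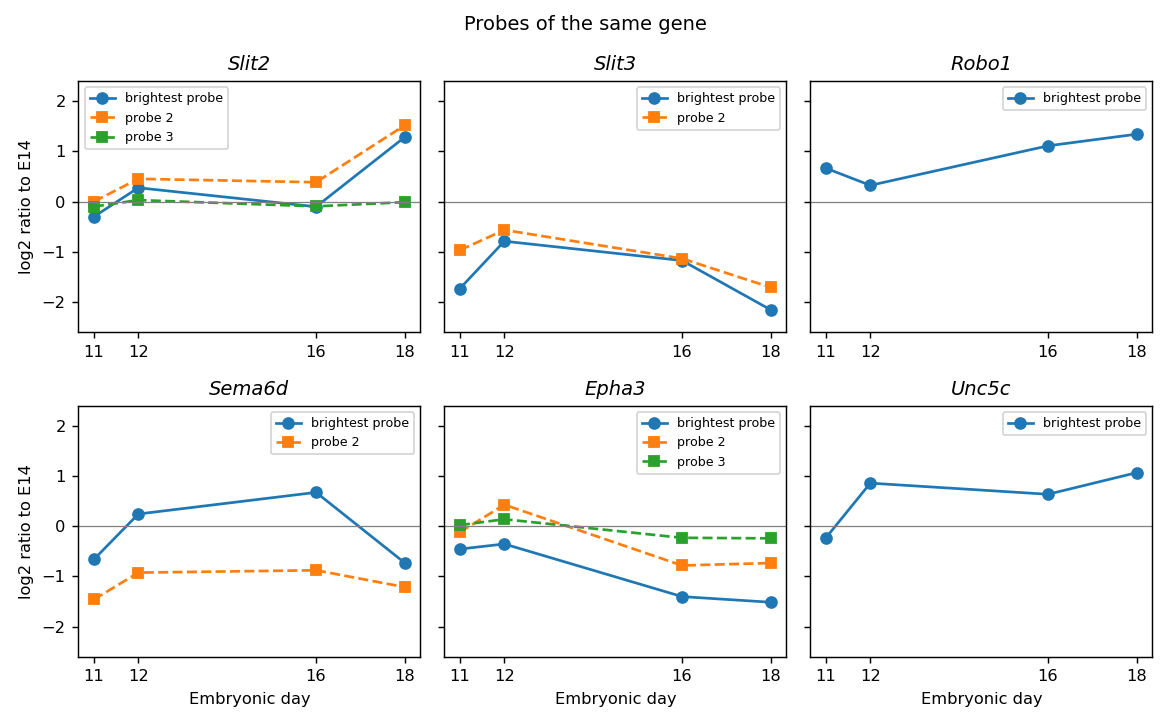
Log2 ratio to E14 (vertical axis) against embryonic day (horizontal axis) for every measured probe of Slit2, Slit3, Robo1, Sema6d, Epha3 and Unc5c; the solid line is the brightest probe, whose value stands for the gene. The brighter Slit2 probes both reach their highest value at E18 (1.29 and 1.52), and the Sema6d probes part at E16 (0.67 and -0.88).

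The netrin genes Ntn1 and Ntn4 were not well above background on any array for either dye. Ntn5, a netrin gene that the choice of names did not take in, was well above background for E14 on 2 arrays and for no other stage. Of the netrin receptors, Unc5a was at -0.83, -1.31, -1.16 and -1.15 (SD of E14 0.07, n = 4), below E14 throughout. Unc5b, which is also a receptor of endothelial tip cells, was at -1.06, -1.33, -0.09 and 0.34 (SD of E14 0.03, n = 4). Unc5c was at -0.23, 0.86, 0.64 and 1.07 (SD of E14 0.07, n = 4). It stood 2.13-fold higher at E12 than at E11, on the same slide. The 5 other genes not measured were Epha6, Epha8, Plxnb3, Robo3 and Unc5d. None of the 11 probes of the 7 unmeasured genes was well above background in either dye on any array, so their levels were not detectable here.

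The other stages were set against each other through pairs of arrays, so that a dye bias common to the arrays cancels. From E11 to E12, 1 of 56 guidance genes was at least 2-fold apart (Unc5c), against 0.977% of all measured genes. From E16 to E18, Slit2 was at least 2-fold higher and Sema6d at least 2-fold lower, against 1.37% of all measured genes. Slit3, at a step of -0.98, lay just short of 2-fold. The neighbouring Slit2 probe went from 0.38 to 1.52, but the dimmer Sema6d probe only from -0.88 to -1.21. With the median over probes 0 guidance genes passed. Over the whole span, 7 genes were at least 2-fold higher at E18 than at E11 and 3 lower, against 8.46% of all measured genes either way. With median centring 7 were higher and 8 lower, against 13.6%. The higher were Epha2 (4.78-fold), Epha1 (3.40-fold), Plxnc1 (3.03-fold), Slit2 (1.59 log2 units), Sema3b (2.91-fold), Unc5b (2.64-fold) and Unc5c (2.46-fold). The lower were Epha4 (2.32-fold), Ephb2 (2.12-fold) and Epha3 (2.08-fold).

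A slope of the log2 ratio in embryonic day, with 2 residual degrees of freedom, was fitted with limma to all 17395 genes with complete values. At a Benjamini-Hochberg adjusted p under 0.05, 5 of 56 guidance genes rose and 2 fell, 12.5% against 8.92% of all genes fitted (6.28% rising and 2.64% falling). The slope of Epha2 was 0.35 ± 0.04 log2 units per day (SE, adjusted p = 0.00823), that of Sema3b 0.26 ± 0.04 (0.0150), of Plxnc1 0.24 ± 0.03 (0.0100), of Unc5b 0.23 ± 0.04 (0.0194) and of Sema3e 0.11 ± 0.02 (0.0329). Those that fell were Epha4 at -0.19 ± 0.04 (adjusted p = 0.0279) and Epha3 at -0.18 ± 0.03 (0.0309). Epha2, Sema3b and Epha3 lay below E14 on all 4 arrays, so their slopes do not describe a steady change through E14. Epha1 stood at 0.25 ± 0.06 and just missed the threshold (adjusted p = 0.0539), as did Efnb3 at -0.15 ± 0.04 (0.0558) and Sema6c at -0.15 ± 0.04 (0.0563).

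These calls rest on few arrays. With slide as a block, slopes ± SE were 0.16 ± 0.14 (Plxnc1), 0.13 ± 0.17 (Epha2), 0.12 ± 0.17 (Unc5b) and 0.05 ± 0.14 (Sema3b). They were 0.04 ± 0.09 for Sema3e, -0.02 ± 0.15 for Epha3 and -0.0058 ± 0.16 for Epha4. All but that of Plxnc1 were smaller than their SE, and that of Plxnc1 was little larger than its SE. This fit leaves 1 residual degree of freedom, and none of these signs is settled. In this fit limma called 0 of 17395 genes, with 577 at an unadjusted p under 0.05, among them 3 guidance genes. Of 56 guidance genes, 2 were called when E11 was left out (against 1.23% of all genes) and 2 when E12 was (2.16%). With E16 left out 14 were called (13.7% of all genes), and with E18 left out 10 (11.4%). The epithelial marker list moved with the rising genes, 8 of its 10 members rising and 0 falling, and the mesenchymal list with the falling genes, 8 of 10 falling and 0 rising. Their part in these slopes was not tested. The 9 endothelial slopes lay between -0.10 (Cldn5) and 0.02 (Eng), and 9 of 9 missed the adjusted threshold in limma, with Cldn5 alone at an unadjusted p under 0.05 (0.0183).

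**Figure D4:**
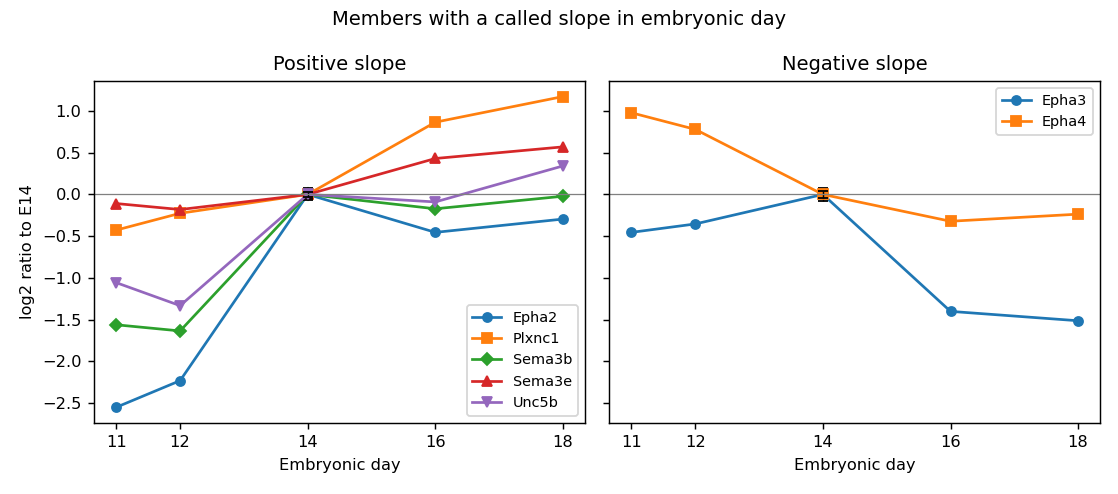
Log2 ratio to E14 (vertical axis) against embryonic day (horizontal axis) for the 5 guidance genes that rose (left) and the 2 that fell (right); E14 is 0 by construction, with bars of ± 1 SD of the E14 signal over 4 hybridisations. Epha2 runs from -2.55 at E11 to -0.30 at E18, and Epha4 from 0.98 to -0.24.

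Upstream sequences are given for the steepest rising and falling genes with an entry in RefSeq's table for assembly GRCm38.p6, which held 54 of the 63 guidance genes and no entry for Sema3b. Each is the 250 bases before the annotated start, 5′ to 3′ on the gene's strand. Capitals mark the GC box GGGCGG or its reverse complement CCGCCC, a binding motif of Sp-family factors.
Epha2 (chr4:141300971-141301220, plus strand): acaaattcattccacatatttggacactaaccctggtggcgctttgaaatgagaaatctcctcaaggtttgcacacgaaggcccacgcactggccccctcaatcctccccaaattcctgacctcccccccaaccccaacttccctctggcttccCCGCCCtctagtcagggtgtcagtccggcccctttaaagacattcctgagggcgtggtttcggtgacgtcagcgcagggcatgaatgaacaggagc
Plxnc1 (chr10:94944846-94945095, minus strand): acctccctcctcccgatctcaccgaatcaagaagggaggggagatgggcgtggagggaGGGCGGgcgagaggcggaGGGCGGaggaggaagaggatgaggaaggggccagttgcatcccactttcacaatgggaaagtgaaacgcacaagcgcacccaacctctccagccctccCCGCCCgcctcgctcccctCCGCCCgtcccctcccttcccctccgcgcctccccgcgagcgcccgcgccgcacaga
Epha3 (chr16:63864176-63864425, minus strand): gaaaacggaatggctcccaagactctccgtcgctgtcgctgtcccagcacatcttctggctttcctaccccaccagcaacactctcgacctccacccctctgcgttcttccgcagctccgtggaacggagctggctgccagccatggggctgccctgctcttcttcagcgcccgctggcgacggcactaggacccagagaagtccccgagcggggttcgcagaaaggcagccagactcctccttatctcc
Epha4 (chr1:77515089-77515338, minus strand): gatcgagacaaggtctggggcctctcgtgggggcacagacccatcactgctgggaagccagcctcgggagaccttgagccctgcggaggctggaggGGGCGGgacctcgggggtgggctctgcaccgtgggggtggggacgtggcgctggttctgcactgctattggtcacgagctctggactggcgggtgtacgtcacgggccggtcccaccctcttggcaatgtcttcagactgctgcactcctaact
The Plxnc1 window held 4 GC boxes, the Epha2 and Epha4 windows 1 each and the Epha3 window 0. On both strands, a GC box occurred in 71.4% of 70 windows of guidance genes, against 32.7% of all 32851 windows of this length. None of these 4 windows held a TATAAA motif, which occurred in 2.9% of windows of guidance genes and in 12.4% of all windows. CCAAT, which can overlap a GC box, was found in the Epha4 window alone of these 4, in 25.7% of windows of guidance genes and in 33.8% of all. The median GC content was 64.4% in windows of guidance genes and 52.4% in all, and these matches are descriptions of letters, not of bound sites.

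The probes behind the main values lie, on the build mm7 named in the array file headers, at these places. The Epha2 probe is on chromosome 4 at 140707665 to 140707724, the Epha4 probe on chromosome 1 at 77593690 to 77593749, and the Epha3 probe on chromosome 16 at 63493624 to 63493683. The Slit2 probe is on chromosome 5 at 47631141 to 47631200, the Slit3 probe on chromosome 11 at 35565582 to 35565641 and the Robo1 probe on chromosome 16 at 73042586 to 73042645. The Sema7a probe is on chromosome 9 at 57990527 to 57990586 and the Plxnc1 probe on chromosome 10 at 94351844 to 94351903. Whether each lies in a coding exon or another part of its transcript was not analysed here.

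Other genes of the guidance pathways were listed by function. Of 17 measured ligands, receptors and partners outside the families above, 2 rose and 0 fell (against 6.28% and 2.64% of all genes fitted). Ntng1, a membrane-anchored netrin relative, was at -3.32, -1.92, -0.77 and -0.83 (slope 0.33 ± 0.07, adjusted p = 0.0406), and Rgma, a repulsive ligand of neogenin, at -0.43, -0.29, 0.30 and 0.49 (0.13 ± 0.03, adjusted p = 0.0319). Neo1, or neogenin, was below E14 throughout, at -0.77, -0.55, -0.29 and -0.47. The netrin receptor gene Dcc was not measured. Flrt2, a ligand of Unc5 receptors, had the most negative slope (-0.16 ± 0.04, adjusted p = 0.0501), followed by the endothelial receptor gene Robo4 (-0.12 ± 0.03, adjusted p = 0.0605).

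Of 41 cytoplasmic effectors, 3 rose and 2 fell (against 6.28% and 2.64% of all genes fitted). However, 2 of the 3 that rose had E14 well above background on only 1 array, so that no size is given for them. The collapsin response mediators Crmp1 (1.34, 1.15, -0.53 and -0.38; slope -0.28 ± 0.05, adjusted p = 0.0218) and Dpysl2 (0.67, 0.73, -0.36 and -0.61; -0.21 ± 0.03, adjusted p = 0.0154) fell. Mical2, an actin-oxidising relative of the plexin effector Mical1, rose (0.16 ± 0.04, adjusted p = 0.0461) and was well above background throughout. Vav3, an exchange factor gene that acts downstream of Eph receptors, had the highest slope of the list and did not pass (0.30 ± 0.07, adjusted p = 0.0542).

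Of 15 measured neurotrophic genes 2 rose and 1 fell (against 6.28% and 2.64% of all genes fitted). Ntrk2, the BDNF receptor gene, was at -3.12, -1.08, 1.74 and 1.09 (0.60 ± 0.12, adjusted p = 0.0343), and Ngfr, the p75 receptor gene, at -2.23, -2.12, -1.32 and -1.01 (0.18 ± 0.03, adjusted p = 0.0156). Ntf3 fell (1.33, 0.85, 0.13 and -0.01; -0.19 ± 0.03, adjusted p = 0.0177), and Bdnf, at -0.11 ± 0.03, did not pass (adjusted p = 0.0867). Of 8 genes of VEGF ligands and receptors, some of which share neuropilins with semaphorins, Pgf fell (-0.15 ± 0.03, adjusted p = 0.0407). Vegfd (0.20 ± 0.06, adjusted p = 0.0827), Vegfa (0.13 ± 0.04, adjusted p = 0.0806) and Vegfc (-0.16 ± 0.04, adjusted p = 0.0550) did not pass.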

How the data were processed

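Pooled molar germ RNA of 5 stages was compared on 4 two-colour arrays. Per the file headers, the deposited scanner files come from Agilent Feature Extraction 10.5.1.1 and hold linear intensity values (mean signal and median background of each spot) and a log10 ratio of Cy5 over Cy3. In the deposited series value table, 100% of values on each array equalled that log10 ratio within 1%, and the column medians were 0, which settles its scale and direction. Members, lists and tests were chosen with earlier results of these data known.

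Intensities were corrected with normexp (offset 50) and loess-normalized within arrays with limma 3.58.1 in R 4.3.3. Control spots and outlier-flagged spots (92 to 126 per array) were left out, and replicate spots were averaged per probe. Ratios of dim genes are compressed by the offset. Through a RefSeq gene table (GRCm38.p6), accessions named 22951 of 41174 probes, symbols 6659 and synonyms 3109; the other 8455 stayed as the array names them. Every member kept its array name. A gene took its brightest probe. Of 17399 measured genes, 17395 were fitted with lmFit and eBayes (intensity trend, 2 residual degrees of freedom), and p-values were adjusted by Benjamini-Hochberg. The step was tested on simulated data.

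Full values were given by rule to members at least 2-fold from E14, members with a called slope and the 2 widest-ranging members of each family, and of each further list to the genes past the test and the 2 highest and 2 lowest slopes; other members named with values were chosen after their values were seen. Differences between arrays, and their alternatives, were added after the data were seen. No sequence of the array probes was used here, and some genes of the further lists are not reported here.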

Additional observations from a re-analysis of the deposited data

Results flagged for a closer look

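In 3 of the 56 measured guidance genes, 1 of the 4 E14 hybridisations stood apart from the others, where chance alone flags about 1 in 20 such groups of 4. The gap to the nearest value was 0.831 of the whole range for Epha3, with the E14 signal on the E12 array standing apart, 0.854 for Sema5b (the E11 array) and 0.879 for Sema6c (the E18 array). The SDs of E14 were 0.08, 0.10 and 0.04 log2 units, so that the Epha3 ratios of -1.40 and -1.51 are far larger than this spread.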

How the results depend on the processing

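Of 504 recomputed ratios of the named guidance genes, 247 moved by less than the SD of E14 and 256 by more, and 1 value at least 2-fold from E14 turned (Nrp2 at E12, 0.28 with median centring). Of 234 recomputed slopes, 195 stayed on their side of the threshold, 25 lost and 11 gained a call, and 3 turned: Nrp2 to -0.0393 with slide as a block, Slit3 (-0.2092 to 0.0522 over the arrays left out) and Unc5a (-0.0497 to 0.0274). The called slopes of Epha2 and Plxnc1 were lost under slide and without E11. Those of Epha4 and Sema3b were lost under slide, without E11 and without E12. That of Unc5b was lost under slide, with median centring and without E12. Sema3e was lost under 8 of 13 alternatives and Epha3 under 4. No paired analysis was possible because each stage is 1 pool and the labels give no replicate numbers.

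A fold of 1.5 gave 19, 14, 13 and 23 guidance genes at E11, E12, E16 and E18 (against 20.3%, 9.98%, 14.3% and 22% of all genes). Normexp with no offset gave 13 at E11, 11 at E16 and 19 at E18 (23.2%, 19.6% and 33.9%, against 15.6%, 10.8% and 18%), and scanner log ratios 17, 10, 12 and 20 (against 22.1%, 12.9%, 16.5% and 25.9%). Median centring gave 15 at E12 (26.8%, below the 33.3% of all genes), and the median over probes 5 at E18 (8.93% against 5.18%). Between E12 and E11 the count was 5 with median centring (against 2.25% of all genes), 0 over the median of probes (0.581%), 4 without background correction (1.5%), 5 with no offset (4.97%) and 7 with scanner log ratios (9.62%). Between E18 and E16 it was 5 with median centring (3.79%), 0 over the median of probes (0.943%) and 5 with scanner log ratios (9.73%). Between E18 and E11 it was 15 with median centring (13.6%), 5 over the median of probes (6.18%), 17 with no offset (18.5%) and 16 with scanner log ratios (25.7%). Averaging over probes takes in dim probes.

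With slide as a block 0 guidance genes and 0 of all genes were called in limma (3 and 577 at an unadjusted p under 0.05). Leaving out each array gave 2 to 14 guidance genes and 214 to 2377 of all genes. Guidance genes below E14 on all arrays numbered 23, and 6 with median centring. The median log2 ratio at E11 was 0.095 with median centring, -0.24 over the median of probes, -0.51 without background correction, -0.27 with no filter on dim genes, -0.54 with no offset and -0.51 with scanner log ratios. At E12 it was 0.50 with median centring and -0.0675 over probes. At E16 it was 0.48 with median centring, -0.10 with no filter, -0.27 with no offset and -0.28 with scanner log ratios. At E18 it was 0.0325 with median centring, -0.20 over probes, -0.20 with no filter, -0.34 with no offset and -0.36 with scanner log ratios. The causes were not tested.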

Other observations

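Marker lists of nerve and blood in the same germs moved by member. Beside the counts that follow, 6.28% of all genes fitted rose and 2.64% fell. Of 9 measured neuron genes, 2 rose and 0 fell. Their median log2 ratios, in stage order, were 0.33, 0.03, 0.14 and 0.18, and 6 of the 9 stood above E14 at E11. Tubb3, the neuronal tubulin gene, was well above background throughout (-0.57, -0.53, 0.14 and 0.59 in stage order; limma slope 0.17 ± 0.03 per day, adjusted p = 0.0234). Stmn2, a growth cone gene, had E14 well above background on 1 array, so that no size is given for it. Nefl, a neurofilament gene, was at 1.72 at E11, 0.43 at E12 and 0.55 at E18, was not well above background at E16, and did not pass. Of 6 measured Schwann cell and glia genes, S100b rose (0.45 ± 0.06, adjusted p = 0.0136), while Sox10 and Fabp7 were at 1.14 and 1.77 at E11 and at 0.01 and 0.12 at E12. The medians of these 6 genes were 0.35, -0.09, -0.03 and -0.07 in stage order. Of 6 erythroid genes 4 fell, among them the embryonic globin gene Hbb-bh1 (4.49, 2.93 and -3.79 at E11, E12 and E16, and not well above background at E18). Of 6 osteoblast genes 4 rose, of 6 leukocyte genes 1 rose, and of 5 measured skeletal muscle genes 0 passed in limma (Myog alone at an unadjusted p under 0.05, 0.0298, with E14 not well above background on any array). Their part in the values of the guidance genes was not tested.

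The plexin gene Plxnc1 and its ligand gene Sema7a lay on opposite sides of E14 at the late stages: Sema7a was at -1.34 and -1.31 at E16 and E18, and Plxnc1 at 0.87 and 1.17.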
